A study of Mus musculus with 6 samples.

Results

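The genes described here encode the nuclear-encoded proteins of the mitochondrial respiratory chain (complexes I to IV) and of ATP synthase (complex V). They were chosen by gene symbol from a table of 22923 genes: symbols that start with Ndufa, Ndufb, Ndufc, Ndufs, Ndufv, Uqcr, Cox4 to Cox8 or Atp5, plus Sdha, Sdhb, Sdhc, Sdhd and Cyc1, without the assembly factors named Ndufaf and without Cox7a2l and Atp5sl. This gave 85 genes, of which 36 belong to complex I, 4 to complex II, 9 to complex III, 19 to complex IV and 16 to complex V. Ndufa4 and its paralog Ndufa4l2 were counted with complex IV, where the Ndufa4 protein is now placed. The remaining gene, Cox4nb, matched by its symbol only: it encodes a subunit of a membrane protein complex of the endoplasmic reticulum and was kept in counts over all members but in none by complex.

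RNA was sequenced from pancreatic islets of Ffar2-/- mice (whole-body knockout, hereafter Ffar2 KO) and of wild-type (WT) mice, in 3 libraries of each, every one from the pooled islets of 2 mice. Ffar2 encodes FFA2, a G protein-coupled receptor for short chain fatty acids. According to the methods, both genotypes came from crosses of Ffar2 heterozygotes on the C57BL/6J background, and isolated islets were kept overnight in culture before use. The labels give normal chow and 10 to 12 weeks of age for both genotypes, while the supplement of the study gives an older age. The sources used here name no drug treatment of these libraries, and whether each library came from its own pool of animals is not given in them, so the p-values reflect only library-to-library spread, which may be technical. The comparison asks how the transcripts of the respiratory chain differ between islets labelled Ffar2 KO and WT islets.

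Complex I (NADH dehydrogenase) and complex II (succinate dehydrogenase) pass electrons to ubiquinone, complex III passes them on to cytochrome c, and complex IV (cytochrome c oxidase) passes them to oxygen. Complexes I, III and IV pump protons across the inner mitochondrial membrane, and complex V uses the returning protons to make ATP. In β cells a rise in ATP made from glucose closes potassium channels and triggers insulin release. All complexes but complex II also hold subunits encoded by mitochondrial DNA, and 0 of those genes are in the table, so they were not analysed here.

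Many promoters of these genes are known to hold sites for the transcription factors NRF1, GABP (an ETS factor) and YY1. RefSeq start sites of build GRCm38.p6 gave at least 1 window, from 250 bases before to 50 bases after the start, for 68 of the 85 genes. Each window was searched on both strands, and a gene was counted if any of its windows held the letters. The NRF1 letters GCGCANGCGC were found in 17 of the 68 genes (25.0%), against 5.19% of 27025 RefSeq genes. The ETS letters CCGGAAG were found in 16 (23.5%), against 9.93%, and the YY1 letters ATGGCGGC in 6 (8.82%), all of them of complex I, against 2.6%. At least 1 of these 3 motifs was found in 34 of the 68 genes, against 15.8% of the 27025 RefSeq genes. The TATA box letters TATAAA were found in 7 of the 68 (10.3%), against 15.7%. Complex V had the NRF1 letters in 6 of 15 genes and complex IV in 1 of 13. A match is a run of letters and not a shown binding site, and the absence of a match says only that these letters are not in this window.

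Stretches of 6 of these promoters, from 130 bases before to 20 bases after the start, show the kinds found. Capitals mark the NRF1 letters in Sdha, Ndufb4 and Atp5k and the ETS letters, read on the opposite strand as CTTCCGG, in Atp5k, Cox8a and Cox6b1. Sdha is the gene of complex II whose level differed least, Ndufb4 and Atp5k are small subunits with NRF1 letters, Cox8a is the most abundant member per length, and Cox6b1 and Cox7a1 lie nearest to Ffar2. Cox7a1 held none of the NRF1, ETS or YY1 letters. All are written from 5′ to 3′ along the gene's own strand: Sdha at chr13:74350221-74350370 (minus strand), Ndufb4 at chr16:37654349-37654498 (minus), Atp5k at chr5:108434380-108434529 (minus), Cox8a at chr19:7217597-7217746 (minus), Cox6b1 at chr7:30626095-30626244 (minus) and Cox7a1 at chr7:30184041-30184190 (plus).
Sdha: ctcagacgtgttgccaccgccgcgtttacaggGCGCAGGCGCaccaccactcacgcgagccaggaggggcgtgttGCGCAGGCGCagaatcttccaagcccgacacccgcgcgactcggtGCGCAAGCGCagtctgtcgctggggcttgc
Ndufb4: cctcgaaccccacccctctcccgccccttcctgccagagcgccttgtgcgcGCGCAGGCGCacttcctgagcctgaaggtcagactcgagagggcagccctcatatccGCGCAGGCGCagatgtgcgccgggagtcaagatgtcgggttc
Atp5k: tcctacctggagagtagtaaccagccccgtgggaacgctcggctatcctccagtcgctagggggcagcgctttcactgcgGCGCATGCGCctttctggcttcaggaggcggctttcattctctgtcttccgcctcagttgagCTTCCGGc
Cox8a: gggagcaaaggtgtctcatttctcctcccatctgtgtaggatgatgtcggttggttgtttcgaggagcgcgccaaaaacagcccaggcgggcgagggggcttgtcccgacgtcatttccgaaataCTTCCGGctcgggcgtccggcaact
Cox6b1: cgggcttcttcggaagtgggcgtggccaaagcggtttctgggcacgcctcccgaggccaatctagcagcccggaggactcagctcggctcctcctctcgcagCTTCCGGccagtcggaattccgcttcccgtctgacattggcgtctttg
Cox7a1: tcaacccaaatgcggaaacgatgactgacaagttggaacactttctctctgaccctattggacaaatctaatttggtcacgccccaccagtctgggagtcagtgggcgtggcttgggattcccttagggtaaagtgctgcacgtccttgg

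Over the genes used, the libraries held 17067263 to 22792367 counts in Ffar2 KO and 19352339 to 21283444 counts in WT. Ffar2 itself went against the label: it had 71.8, 43.9 and 46.1 CPM (read counts scaled by TMM to a common library size) in the libraries labelled Ffar2 KO, against 34.1, 27.0 and 26.5 CPM in WT. Counts per gene cannot tell which exon was read, so the genotype is given as labelled and every direction below rests on that label. Acinar cells are the exocrine cells that can remain with isolated islets. Of a list of 24 acinar genes, 5 were skipped by the authors' caller and left out here. The other 19 were used, 0 of them at 0 in every library. Of the counts of the genes used, these 19 took 1.47%, 9.58% and 24.4% in replicates 1 to 3 labelled Ffar2 KO. In WT they took 4.29%, 5.15% and 1.32%. The skipped genes are in neither part of these shares. Of a list of 10 β cell markers, Ins1, Ins2 and Iapp were skipped by the authors' caller and left out here. The other 7 were used, none at 0 in every library. They summed to 3865, 5315 and 4429 CPM in the libraries labelled Ffar2 KO, against 5136, 5563 and 5134 CPM in WT. Of the 7, 4 had a log2 fold change below 0, such as Slc2a2 at −0.28. Mafa, Nkx6-1 and Pdx1 lay above 0, at 0.25, 0.26 and 0.45. In whole islets, fewer cells of a type and less RNA per cell cannot be told apart.

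Of the 85 genes, 81 passed the filter on low counts, which kept 14082 genes in all. The 4 below it were Cox6b2, Cox7b2, Cox8b and Cox8c, with 0 to 5 counts in every library. By the authors' RPKM (reads per kilobase, scaled to depth, 1 pooled value per genotype), the 81 genes had a median level of 92.1 RPKM in Ffar2 KO and 96.4 RPKM in WT, against a median of 6.82 and 6.52 RPKM over all genes tested. Cox8a led with 339 RPKM in Ffar2 KO and 395 in WT, and the next were Atp5l with 309 RPKM in Ffar2 KO and 375 in WT, Atp5b with 311 and 326 RPKM and Atp5e with 287 and 327 RPKM. The lowest genes tested were Cox4i2, with 1.45 RPKM in Ffar2 KO and 1.82 in WT, and Cox7a1, with 1.47 and 3.11 RPKM.

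Nearly all of these transcripts had a slightly lower fitted level in the libraries labelled Ffar2 KO than in WT, and none passed the test. This direction rested mostly on replicate 1 labelled Ffar2 KO. It was the lowest of the 6 libraries in 77 of the 81 genes, against 27.9% of all genes tested. With that library left out, 52 of 81 genes lay below 0, against 50.5% of all genes. With all libraries, the values were as follows. The log2 fold change was below 0 in 78 of 81 genes (96.3%), against 46.7% of all genes tested, and its median was −0.14, a level 0.905 times that of WT, against a median of 0.02 over all genes tested. The 3 genes above 0 were Ndufb10, Ndufa10 and Ndufa9 of complex I, at 0.01, 0.01 and 0.00. All 81 genes lay below 0 with upper-quartile or total-count scaling, against 50.6% and 74.4% of all genes. Of the 81 genes, 0 passed an adjusted p of 0.05 in edgeR (0% of all genes tested did), and 0 passed in DESeq2 or limma-voom. At an unadjusted p under 0.05, 4 genes (4.94%) were lower (Cox7a1, Cox8a, Atp5l and Ndufc2), against 2.12% of all genes, and 0 were higher, against 2.58%. The count of lower genes was 0 without replicate 1 labelled Ffar2 KO (2.77% of all genes), without WT replicate 2 (0.74%) or without WT replicate 3 (0.996%). It was 2 without replicate 2 labelled Ffar2 KO (1.37% of all genes), 2 in DESeq2 (2.14%) and 2 in limma-voom (2.07%). The 95% interval of the fold change spanned 0 on the log2 scale in 77 of the 81 genes and lay within 2-fold in 78.

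**Figure D1:**
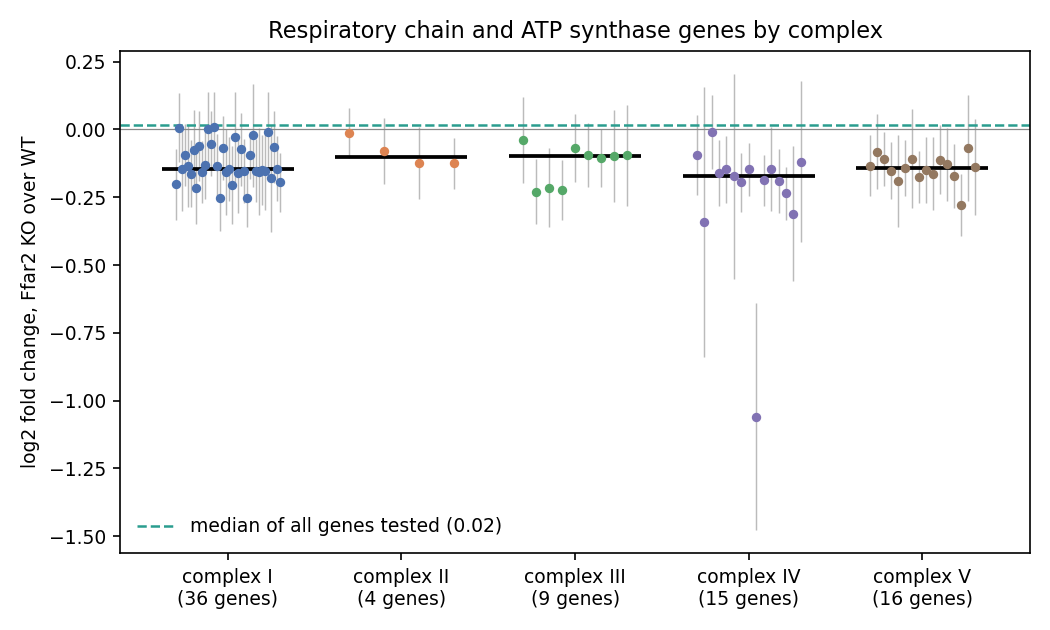
Each point is the log2 fold change (Ffar2 KO over WT, from edgeR) of 1 gene, with its standard error as a grey line, grouped by complex along the x axis; black bars are the medians of the complexes and the dashed line is the median of all genes tested. Nearly all points lie between −0.30 and 0.02, and the far point below is Cox7a1 at −1.06.

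The shift was not equal in the 3 libraries labelled Ffar2 KO. Relative to the WT mean, the median log2 ratio over the 81 genes was −0.37, −0.06 and 0.01 in replicates 1 to 3 labelled Ffar2 KO, against −0.03, 0.08 and −0.06 in WT. Replicate 1 labelled Ffar2 KO therefore stood at 0.774 times the WT mean, while the other two lay within the range of the WT libraries. It was below the lowest WT library in 78 of the 81 genes, against 34.6% of all genes tested, while replicate 2 was so in 31 genes, against 25.1%, and replicate 3 in 18, against 29.0%. Replicate 3 was above the highest WT library in 20 genes, against 29.6% of all genes tested. WT replicate 2 was the highest of the 6 libraries in 48 genes, against 14.7% of all. Summed over the 81 genes, the level was 6266, 7546 and 7811 CPM in the libraries labelled Ffar2 KO, a mean of 7208 ± 827, against 7769, 8235 and 7557 CPM in WT, a mean of 7853 ± 347 (SD, n = 3 each). The groups overlap.

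Without replicate 1 labelled Ffar2 KO, 52 of 81 genes lay below 0 (50.5% of all genes did), the median log2 fold change was −0.03 against −0.00 over all genes, and 0 of the 81 were lower at an unadjusted p under 0.05, against 2.77% of all genes. All 3 libraries labelled Ffar2 KO lay below all 3 WT libraries in 9 of the 81 genes (11.1%), against 5.84% of all genes tested, and above them in 0, against 5.36%. The 9 genes were Ndufb2, Ndufv3, Cox6b1, Cox7a1, Cox7a2, Cox8a, Atp5a1, Atp5g2 and Atp5k. Without replicate 1 labelled Ffar2 KO, 9 genes lay wholly below WT, against 12.0% of all genes. With CPM scaled by total counts, which shifts the median of all genes to −0.14, 61 genes lay below WT in this way, against 15.6% of all. The share of the 19 acinar genes in the counts used was 1.47%, 9.58% and 24.4% in replicates 1 to 3 labelled Ffar2 KO. The medians beside it were −0.37, −0.06 and 0.01. In WT replicates 1 to 3 it was 4.29%, 5.15% and 1.32%, beside medians of −0.03, 0.08 and −0.06. Its part in the result was examined only by leaving the acinar genes out or by a covariate. With the acinar genes left out before scaling, the median was −0.15, against 0.01 over all genes. In that fit 4 of the 81 genes were lower at an unadjusted p under 0.05, against 2.19% of all genes. With the mean level of the acinar genes as a covariate in edgeR, the median over the 81 genes was −0.25, against −0.00 over all genes, and 48 had an unadjusted p under 0.05 on the lower side, against 7.61% of all genes. The summed CPM of the β cell markers was also lowest in replicate 1 labelled Ffar2 KO, but of the 7 only G6pc2 and Ucn3 were lowest there, and their part in the result was not tested.

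**Figure D2:**
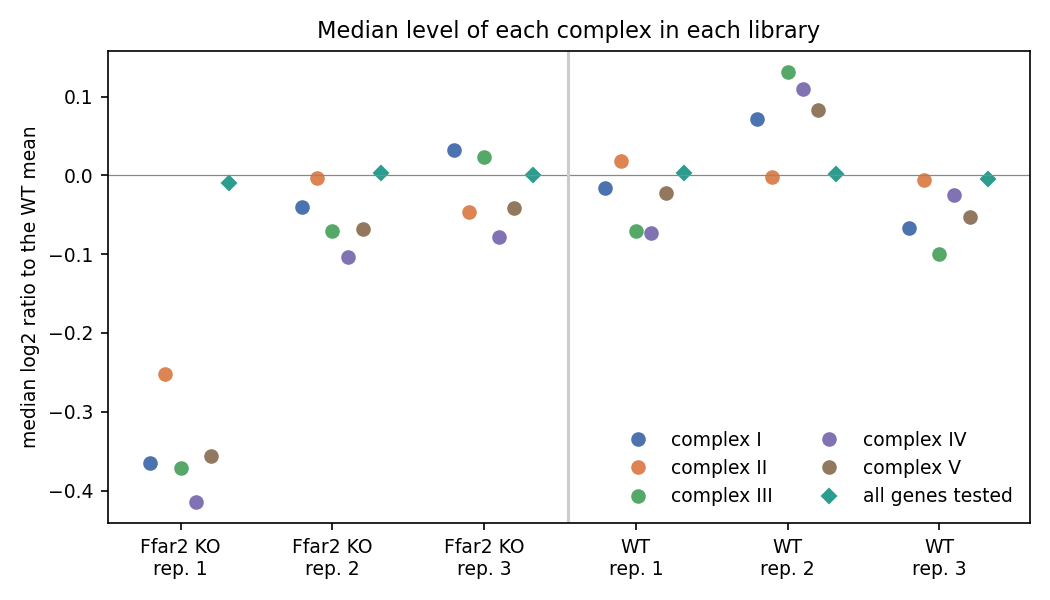
Each circle is the median log2 ratio to the WT mean of 1 complex in 1 library, with libraries labelled Ffar2 KO on the left and WT libraries on the right; diamonds are the median of all genes tested. Replicate 1 labelled Ffar2 KO lies between −0.41 and −0.25 in every complex, while all other points lie between −0.10 and 0.13.

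Complex I showed the shift across most of its 36 subunits, 33 of them below 0, with a median log2 fold change of −0.15. The 7 core subunits that carry out catalysis had a median of −0.10 and the 29 accessory subunits one of −0.15. The genes of complex I summed to 1765, 2191 and 2276 CPM in the libraries labelled Ffar2 KO, against 2259, 2341 and 2135 CPM in WT. Replicate 1 labelled Ffar2 KO was the lowest library in 35 of the 36 genes, against 27.9% of all genes tested. Ndufc2, an accessory subunit of the membrane arm, had 69.2, 69.3 and 80.9 CPM in the libraries labelled Ffar2 KO, against 79.8, 93.3 and 88.3 CPM in WT. Both replicates 1 and 2 labelled Ffar2 KO lay below all WT libraries, but replicate 3 overlapped WT replicate 1. In edgeR the log2 fold change of −0.25 had a standard error of 0.11 and a 95% interval of −0.50 to −0.00, with an adjusted p of 0.852.

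Ndufb2, an accessory subunit, had 27.0, 30.8 and 30.7 CPM in the libraries labelled Ffar2 KO, against 31.4, 40.1 and 33.8 CPM in WT. The groups did not overlap, but replicate 2 labelled Ffar2 KO and WT replicate 1 were close. Ndufv3, a small subunit of the NADH-oxidizing module, had 58.8, 73.0 and 71.3 CPM in the libraries labelled Ffar2 KO, against 75.0, 80.6 and 76.6 CPM in WT, again with no overlap. The log2 fold changes of these genes were −0.25 (standard error 0.12) and −0.19 (standard error 0.11). Per length, Ndufa1 was the most abundant subunit of complex I in WT, with 141 RPKM in Ffar2 KO and 164 in WT, while Ndufa6, with 145 and 153 RPKM, was so in Ffar2 KO. Ndufb10, an accessory subunit, had 51.3, 61.4 and 71.2 CPM in the libraries labelled Ffar2 KO, against 62.6, 62.0 and 58.1 CPM in WT, so that the libraries labelled Ffar2 KO lay on both sides of WT.

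Complex II, which is also the enzyme of the citrate cycle that oxidizes succinate, had the smallest median difference of the 5 complexes, together with complex III. The median log2 fold change of its 4 genes was −0.10, and 4 of 4 intervals spanned 0. Sdha, the flavoprotein that binds succinate, had 306, 312 and 308 CPM in the libraries labelled Ffar2 KO, against 319, 295 and 320 CPM in WT. All 6 values lay close together, and edgeR gave a log2 fold change of −0.01 with a 95% interval of −0.23 to 0.21 and an adjusted p of 0.983. This is the gene whose promoter above holds the NRF1 letters at 3 places. On the log2 scale the iron-sulfur subunit Sdhb differed by −0.08 (standard error 0.12), the membrane anchor Sdhc by −0.12 (standard error 0.13) and the anchor Sdhd by −0.12 (standard error 0.09). In Sdhc, replicate 1 labelled Ffar2 KO was lowest at 79.4 CPM, against 93.6 to 112 CPM in WT.

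Complex III had a median log2 fold change of −0.10 over its 9 genes, all of them below 0, against 46.7% of all genes tested. All 9 were lowest in replicate 1 labelled Ffar2 KO, against 27.9% of all genes tested. They summed to 623, 761 and 831 CPM in the libraries labelled Ffar2 KO, against 772, 871 and 759 CPM in WT. Uqcrb, a small subunit that takes part in binding ubiquinone, had 61.8, 71.8 and 75.5 CPM in the libraries labelled Ffar2 KO, against 84.8, 84.9 and 74.4 CPM in WT, and the groups overlapped through WT replicate 3. Its log2 fold change was −0.22 (standard error 0.11), close to those of the small subunits Uqcr10 at −0.23 (standard error 0.12) and Uqcr11 at −0.21 (standard error 0.15). Cyc1, the cytochrome c1 that hands electrons to cytochrome c, had 55.3, 67.9 and 78.5 CPM in the libraries labelled Ffar2 KO, against 65.3, 79.8 and 61.9 CPM in WT. Its groups overlapped fully, at a log2 fold change of −0.04 (standard error 0.16).

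Complex IV had the lowest median of the 5 complexes, −0.17 over 15 genes tested, and 4 of the 9 genes whose groups did not overlap. Cox8a, a small structural subunit and the most abundant member per length, had 153, 167 and 164 CPM in the libraries labelled Ffar2 KO, against 176, 202 and 191 CPM in WT. Every library labelled Ffar2 KO lay below every WT library, and replicate 1 labelled Ffar2 KO was again the lowest. The log2 fold change was −0.24, with a standard error of 0.10 and a 95% interval of −0.47 to −0.01. The level was 0.85 times that of WT, and the adjusted p from edgeR was 0.852. Cox7a2, the isoform of subunit 7a found in most tissues, had 65.1, 74.4 and 75.4 CPM in the libraries labelled Ffar2 KO, against 79.8, 83.6 and 81.4 CPM in WT, with no overlap and a log2 fold change of −0.19 (standard error 0.09).

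Cox5a, a subunit on the matrix side, had the smallest difference of the complex, −0.01 on the log2 scale (standard error 0.14). Ndufa4, counted here with complex IV, had 34.8, 37.9 and 57.9 CPM in the libraries labelled Ffar2 KO, against 40.0, 67.3 and 54.4 CPM in WT. It varied more than 1.5-fold within each genotype, and the groups overlapped.

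**Figure D3:**
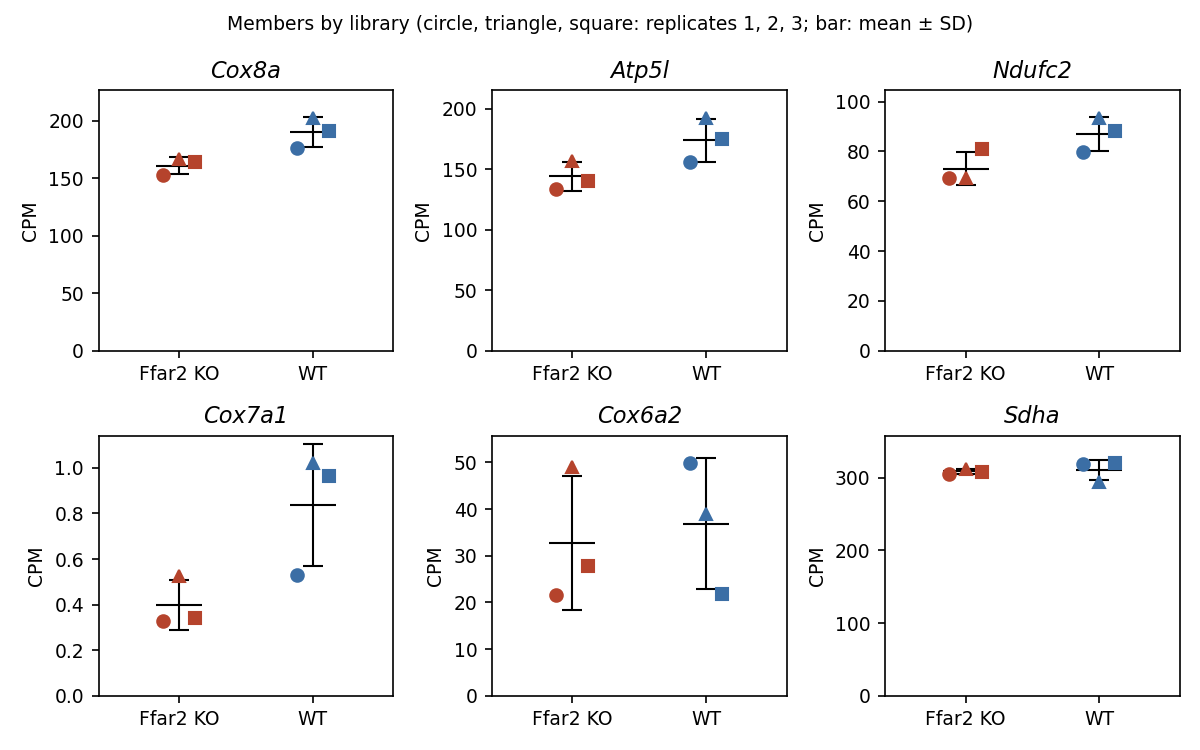
CPM of 6 genes in each library, from 0, with Ffar2 KO on the left and WT on the right of each panel; circles, triangles and squares are replicates 1 to 3, and the black bar is the mean ± SD (n = 3 each). Cox8a and Cox7a1 show no overlap between the groups, Atp5l and Ndufc2 overlap at 1 edge, Cox6a2 spreads from 21.5 to 49.8 CPM in both groups together, and Sdha is nearly level.

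Several subunits of complex IV come as isoforms that differ between tissues, and the islets used mainly the forms found in most tissues. Per length, Cox4i1 made up 99.3% of the Cox4i pair in Ffar2 KO and 99.2% in WT, with 213 and 225 RPKM, while Cox4i2, known from lung and from the response to low oxygen, made up 0.678% and 0.802%. Cox6b1 had 182 RPKM in Ffar2 KO and 206 in WT, against 0.151 and 0.34 RPKM of the testis isoform Cox6b2. Cox8b, a heart and skeletal muscle isoform, had 0 counts in all 3 libraries labelled Ffar2 KO and 0, 4 and 1 counts in WT, and Cox8c, a testis isoform, had 0 counts in all 6 libraries. Ndufa4l2, known as a target of the low-oxygen response, had 3.12 RPKM in Ffar2 KO and 3.33 in WT.

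The exception was Cox6a2, the heart and skeletal muscle isoform of subunit 6a. It had 52.0 RPKM in Ffar2 KO and 58.9 in WT, which is 17.3% and 17.8% of the Cox6a pair, beside 248 and 271 RPKM of Cox6a1. By library it had 21.5, 49.0 and 27.8 CPM in the libraries labelled Ffar2 KO, against 49.8, 39.0 and 21.8 CPM in WT. Low and high values occurred in both genotypes, and the log2 fold change was −0.17 (standard error 0.38). The 5 muscle markers Ckm, Acta1, Myh1, Tnnt3 and Mylpf together had 3.86, 3.51 and 4.59 CPM in the libraries labelled Ffar2 KO, against 3.57, 5.03 and 4.14 CPM in WT, so the level of Cox6a2 was above that of all of them summed in every library.

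Cox7a1, the heart and skeletal muscle isoform of subunit 7a, had the largest fold change of the 81 genes, at a very low level. It was counted 8, 9 and 5 times in the libraries labelled Ffar2 KO, against 12, 21 and 20 times in WT, or 0.328, 0.527 and 0.343 CPM against 0.528, 1.02 and 0.963 CPM. The groups did not overlap, but replicate 2 labelled Ffar2 KO and WT replicate 1 were almost equal. The log2 fold change was −1.06, with a standard error of 0.42 and a 95% interval of −2.05 to −0.07. The level was 0.48 times that of WT, and edgeR's adjusted p was 0.852. It made up 1.52% of the Cox7a pair in Ffar2 KO and 2.77% in WT by RPKM.

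**Figure D4:**
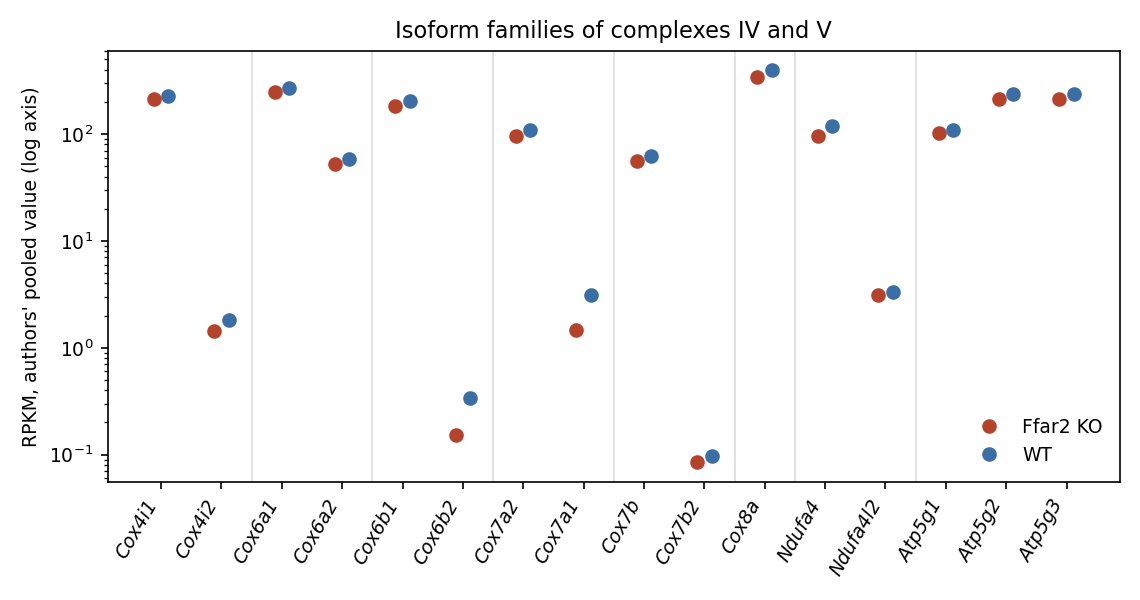
The authors' pooled RPKM (log axis) of the isoform families of complexes IV and V, 1 point per genotype, with Ffar2 KO left of WT and grey lines between families; isoforms listed at 0 in a genotype (Cox8b, Cox8c) are not drawn. Each Cox family has a leading form above 50 RPKM, and where a second form is drawn it lies lower and reaches over 50 RPKM only for Cox6a2, while the 3 Atp5g genes lie within 103 to 236 RPKM.

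Cox7a1 and Cox6b1 lie closest to the targeted gene. On chromosome 7 of mm10, Ffar2 runs from 30818357 to 30823775, Cox6b1 from 30616974 to 30626151 and Cox7a1 from 30184171 to 30186030, and these were the only members within 10 Mb. Cox6b1, a subunit on the side of the intermembrane space, had 69.6, 84.7 and 86.9 CPM in the libraries labelled Ffar2 KO, against 89.1, 94.9 and 91.8 CPM in WT. The groups did not overlap, and the log2 fold change was −0.19, with a standard error of 0.11 and a 95% interval of −0.45 to 0.06. An effect of the deletion and of chromosome 7 sequence carried along with the allele cannot be told apart in this design.

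Complex V lay below 0 in all 16 genes, with a median log2 fold change of −0.14, and 3 of the genes had groups that did not overlap. Its genes summed to 2419, 2876 and 2974 CPM in the libraries labelled Ffar2 KO, against 2977, 3169 and 2913 CPM in WT. The median was −0.13 for the 5 genes of the catalytic F1 head, −0.13 for the 4 of the peripheral stalk and −0.15 for the 3 of the c ring. Atp5l, subunit g of the membrane part, had 134, 157 and 140 CPM in the libraries labelled Ffar2 KO, against 156, 192 and 175 CPM in WT. The groups overlapped only by replicate 2 labelled Ffar2 KO and WT replicate 1. The log2 fold change was −0.28, with a standard error of 0.12 and a 95% interval of −0.55 to −0.01. The level was 0.824 times that of WT, and edgeR's adjusted p was 0.852.

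The 3 genes of the c ring, the proton-carrying rotor, encode the same mature protein. Of their summed RPKM, Atp5g1 made up 19.6% in Ffar2 KO and 18.8% in WT, Atp5g2 40.2% and 40.5%, and Atp5g3 40.2% and 40.7%. Atp5g2 had 116, 135 and 132 CPM in the libraries labelled Ffar2 KO, against 145, 142 and 146 CPM in WT, so that its WT libraries were close together and all above Ffar2 KO, at a log2 fold change of −0.18 (standard error 0.10). Atp5g1 overlapped, with 66.0, 83.4 and 103 CPM in the libraries labelled Ffar2 KO, against 95.2, 101 and 75.4 CPM in WT. In the F1 head, the α subunit gene Atp5a1 had 648, 715 and 743 CPM in the libraries labelled Ffar2 KO, against 750, 793 and 767 CPM in WT, with no overlap and a log2 fold change of −0.13 (standard error 0.11). Atp5k, the gene of subunit e, had 29.6, 37.6 and 37.1 CPM in the libraries labelled Ffar2 KO, against 39.9, 39.7 and 37.8 CPM in WT, with no overlap by a narrow margin. Its log2 fold change was −0.17 (standard error 0.12).

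Most of these transcripts are short, and fold changes moved with transcript length across all genes. With lengths from GENCODE M21 for all 81 members and 13713 of the 14082 genes, the members had a median of 758 bases and 65.4% were under 1000 bases, against 2902 bases and 6.69% for all genes tested. Among other genes, the median log2 fold change ran from −0.09 under 600 bases through 0.00 at 2000 to 3000 bases to 0.10 at 5000 bases and over. In the shortest bin it was −0.17 for the 24 members and −0.09 for the 173 other genes. In the next bin, from 600 to 1000 bases, it was −0.15 for 29 members and −0.08 for 692 other genes. From 1000 to 2000 bases it was −0.11 for 20 members and −0.05 for 3017 others. In these 3 bins the members lay below other genes of like length, by about as much as those lay below 0. In the bins from 2000 and from 3000 bases the 4 members each were at −0.05 and −0.08, and the other genes at 0.00 and 0.05.

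The trend with length was steepest in the library that also had the lowest members. In replicate 1 labelled Ffar2 KO, the median log2 ratio to the WT mean of the other genes was −0.31 under 600 bases and 0.20 at 5000 bases and over, and that of the members was −0.38 under 600 bases. In replicates 2 and 3 labelled Ffar2 KO, the other genes under 600 bases were at −0.04 and −0.04, and the members at −0.10 and −0.08. In replicate 3, however, the members lay above the other genes from 600 to 1000 bases, at 0.05 against −0.01, and from 1000 to 2000 bases, at 0.03 against −0.01. The part of length in the result was not tested.

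**Figure D5:**
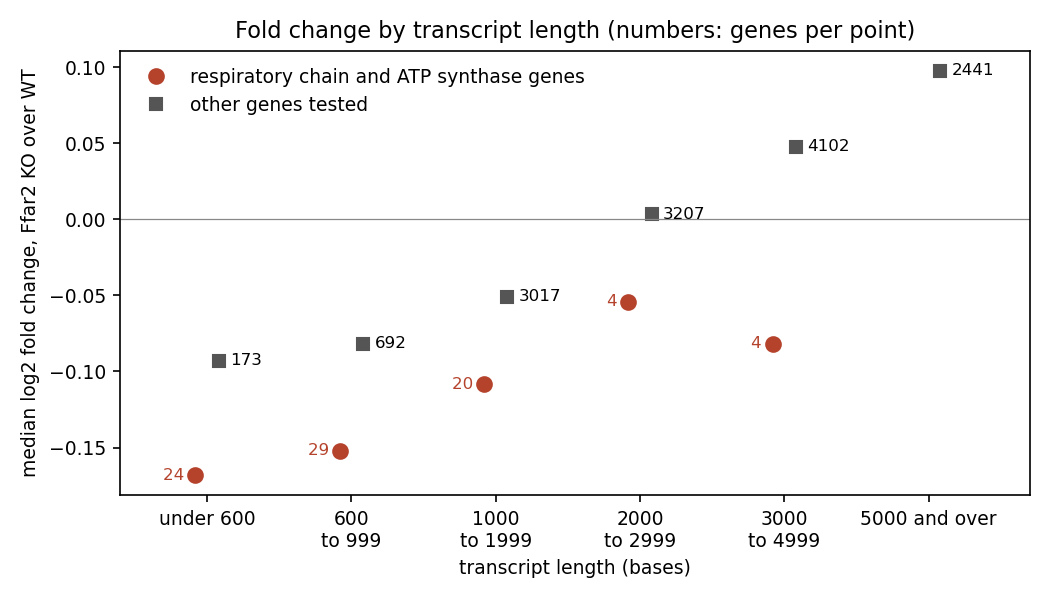
Median log2 fold change (Ffar2 KO over WT) by transcript length in bases, for the respiratory chain and ATP synthase genes (circles) and for other genes tested (squares), with the number of genes beside each point. Other genes run from −0.09 at the short end to 0.10 at the long end, and the members lie below them in every bin that holds members, the bins from 2000 bases up holding only 4 members each.

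Genes that work beside the respiratory chain had medians closer to 0 than the −0.14 of the 81 members, though transcript lengths were not matched. The list of electron carriers and ADP exchange, at −0.09, lay near complexes II and III, both at −0.10. Of 30 assembly factors and related proteins, 17 (56.7%) lay below 0, against 46.7% of all genes tested, with a median log2 fold change of −0.02. At an unadjusted p under 0.05 in edgeR, 2 were lower and 1 was higher, against 2.12% and 2.58% of all genes tested. The lower ones were Atpif1, an inhibitor of ATP synthase, at −0.30 (standard error 0.12), and Nubpl, which delivers iron-sulfur clusters to complex I, at −0.38 (standard error 0.16). The higher one was Sco1, a copper chaperone of complex IV, at 0.34 (standard error 0.14). Of 10 genes of electron carriers and ADP exchange, 9 lay below 0, against 46.7% of all genes tested, with a median of −0.09. In edgeR 1 was lower at an unadjusted p under 0.05, against 2.12% of all genes. This was Slc25a4, an exchanger of ADP and ATP. It had 167, 178 and 170 CPM in the libraries labelled Ffar2 KO, against 187, 208 and 205 CPM in WT, and no overlap.

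Of 16 genes of pyruvate dehydrogenase and the citrate cycle, 12 lay below 0, against 46.7% of all genes tested, with a median of −0.07. In edgeR 1 was lower at an unadjusted p under 0.05, against 2.12% of all genes. This was Pdhb, a subunit of pyruvate dehydrogenase, with 98.2, 96.3 and 91.2 CPM in the libraries labelled Ffar2 KO, against 105, 115 and 112 CPM in WT. Unlike most respiratory chain genes, Pdhb was not lowest in replicate 1 labelled Ffar2 KO. For citrate synthase, Cs, the difference was 0.08 on the log2 scale (standard error 0.13).

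The regulators of mitochondrial genes lay mostly above 0, with a median of 0.08 and 3 of 12 below 0, against 46.7% of all genes tested. In edgeR 1 of the 12 was higher at an unadjusted p under 0.05, against 2.58% of all genes. This was Pprc1, a coactivator related to PGC-1α, with 42.7, 32.7 and 42.0 CPM in the libraries labelled Ffar2 KO, against 26.0, 32.5 and 31.3 CPM in WT. Its lowest value in Ffar2 KO barely cleared the highest WT value, and the log2 fold change was 0.39 (standard error 0.14). Ppargc1a, which encodes PGC-1α, a coactivator known to raise transcription of respiratory genes, had 152, 29.3 and 6.24 CPM in the libraries labelled Ffar2 KO, against 34.2, 12.5 and 20 CPM in WT. Its highest and its lowest value were both in Ffar2 KO, and its highest was in replicate 1, the library with the lowest respiratory chain genes. The fitted log2 difference of 1.5 had a standard error of 0.98 and a 95% interval of −0.81 to 3.81.

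By promoter, the members with the NRF1 letters had a median log2 fold change of −0.15 (17 genes tested) and those without them −0.15 (48 genes). With the ETS letters the median was −0.17 (16 genes), against −0.14 without them (49 genes).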

How the data were processed

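Islet RNA of 3 libraries labelled Ffar2 KO and 3 WT libraries was used, with genotypes from the sample labels. The authors aligned reads with TopHat2 (2.0.8b) to mm10 and ran Cuffdiff (2.1.1), and they deposited unnormalized estimated counts for every gene in each library and RPKM values pooled per genotype. Their own fold changes, p-values and calls were not used. Whether counting used strand, and how reads shared with pseudogenes were treated, is not given in the sources used here. Subunit genes with processed pseudogenes are therefore uncertain.

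Counts were rounded, and 158 names with several values and 15 genes that the authors' caller skipped were left out, none of them members. The 22750 others were filtered with filterByExpr (minimum count 10, minimum total 15), scaled by TMM and tested with edgeR 4.0.16 (glmQLFTest, 2-sided, genotype only, R 4.3.3), with p-values adjusted by Benjamini-Hochberg over all 14082 genes tested. The biological coefficient of variation was 21.5%. Log ratios by library use a prior count of 2. The fit was checked on simulated data. Alternatives were other scalings, no filter, DESeq2 1.42.0, limma-voom (limma 3.58.1) and the replicate number as a block. Further ones were an acinar covariate, the acinar genes left out, skipped genes kept and each library left out.

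The members and lists were chosen with earlier results of these data known. Named with values are, per complex, the 3 genes of lowest p, the most abundant and the most changed, members within 10 Mb of Ffar2, tissue isoforms, complex II, Cyc1 and leading genes of the other lists. Ndufa4, Cox5a, Atp5a1, Ndufa6, Ndufa9, Ndufa10, Atp5b, Atp5e and Cs were added after their values were seen. Some single-gene results are not reported here. A chi-square over genes found no libraries that agreed within counting noise.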

Additional observations from a re-analysis of the deposited data

How the results depend on the processing

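The median log2 fold change over the respiratory chain genes stayed below 0 in every alternative run. It was −0.14 with TMM and −0.31 with total-count scaling, which moved the median of all genes by itself to −0.14, so that the difference between members and all genes was −0.17. The number of members below 0 ran from 52 (without replicate 1 labelled Ffar2 KO) to 82 (no low-count filter, 84 members tested), with 78 as reported. The shares of all genes below 0 in these fits were 50.5%, 48.8% and 46.7%. The number of members lower at an unadjusted p under 0.05 was 4 as reported, against 2.12% of all genes. It was 1 with upper-quartile scaling (2.09% of all genes), 9 with total-count scaling (4.2%), 2 with DESeq2 (2.14%) and 2 with limma-voom (2.07%). It was 48 with the acinar covariate (7.61% of all genes) and 0 at an unadjusted p under 0.01. With a library left out it ran from 0 to 5 (0.74% to 3.63% of all genes). It was 0 without replicate 1 labelled Ffar2 KO (2.77%), without WT replicate 2 (0.74%) and without WT replicate 3 (0.996%). Members passing an adjusted p of 0.05 were 0 under every alternative, while over all genes 1 passed with no filter, 8 in DESeq2 and 11 with the skipped genes kept. Members whose libraries labelled Ffar2 KO all lay below WT were 9 as reported (5.84% of all genes) and 61 with CPM by total counts (15.6%). They were 9 to 31 with a library left out (8.45% to 13% of all genes). With acinar genes left out before scaling they were 9 (5.98% of all genes). Without replicate 1 labelled Ffar2 KO the count of 9 stood beside 12.0% of all genes. These counts with a library or the acinar genes left out, and all counts below 0, were chosen after seeing the data.

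With the replicate block, 0 members were lower at an unadjusted p under 0.05 (1.25% of all genes) and the median was −0.15. The numbers did not pair the libraries: the same-number correlations were 0.11, −0.14 and −0.34.

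Signs were followed across fits for 28 of the named members only. Of these, 20 kept their sign in every fit and 8 reversed when a library was left out. The ranges were −0.28 to 0.0387 for Atp5g1, −0.60 to 0.32 for Cox4i2, −0.58 to 0.10 for Cox6a2, −0.17 to 0.0834 for Cyc1, −0.32 to 0.11 for Ndufa4l2, −0.12 to 0.12 for Ndufb10, −0.0535 to 0.0036 for Sdha and −0.20 to 0.0205 for Sdhb. Ndufb10, at 0.01 as reported, was also −0.0039 with upper-quartile scaling, −0.17 with total-count scaling, −0.0069 in limma-voom, −0.0028 with the replicate block and −0.13 with the acinar covariate. Ndufa9 and Ndufa10, not among the 28, were above 0 as reported and below 0 with upper-quartile and total-count scaling. The causes of these changes were not tested.

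With 3 libraries per genotype, 77 of 81 intervals spanned 0, and the median standard error of a member's log2 fold change was 0.13.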
